A study of Mus musculus with 2 samples.

Results

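The genes described here are 9 cytokine receptor genes of blood cell progenitors, found by symbol among the 31053 genes of the count tables, each on 1 row. They are Csf2rb and Csf2rb2 (the paired beta chains), Csf2ra, Il3ra and Il5ra (the alpha chains that pair with a beta chain), and Csf1r, Csf3r, Il6ra and Ifngr1. The single-cell data came from mouse bone marrow cells sorted as Lin- Kit+, that is, cells without lineage markers but with the Kit receptor. There was 1 wild-type library and 1 library carrying a mutated, knocked-in GATA-1, called 2RA in the title of the study. The comparison asks how cell types and their gene expression differ between the genotypes. Strain, age, sex and the number of mice per library are not given in the sources used here, and the counts do not show the mutation itself. After filtering, 5489 wild-type and 5500 knock-in cells remained, with 64350027 and 43629184 unique molecular identifiers (UMIs, tags that each mark 1 captured RNA molecule) and a median of 9635 and 5272.5 UMIs per cell. Of all barcodes in the files, 10 occurred in both libraries, and 5 of these were among the kept cells. With 1 library per genotype no test across samples was possible. Every interval below covers counting error only, and each difference is between these 2 libraries.

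Interleukin 3, GM-CSF and interleukin 5 bind receptors made of a private alpha chain and the shared signalling beta chain that Csf2rb encodes. Mice carry a second beta chain gene, Csf2rb2, whose product serves interleukin 3 alone. Signalling runs through JAK2 and STAT5 and is known for the growth and survival of mast cells, basophils, eosinophils and myeloid progenitors. GATA-1, which binds GATA letters in DNA, is needed for red cells and megakaryocytes and also acts in mast cells, basophils and eosinophils.

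Cells fell into 7 classes with at least 100 cells in each library, named from fixed marker genes after clustering without the receptor genes, so a class name stands for likeness by markers. Wild-type and knock-in cells numbered 2296 and 3072 in the erythroid class, 297 and 411 in the megakaryocyte class, 175 and 186 in the basophil and mast class, 753 and 777 in the stem and multipotent class, 404 and 455 in the lymphoid-primed class, 458 and 149 in the neutrophil progenitor class, and 1070 and 398 in the monocyte progenitor class. Kit, whose product was used in the sort, stood at 126 and 130 CPM over all cells, where CPM is a gene's share of all UMIs of the cells summed, scaled as counts per 1e+06. Gata1 had 148 and 140 CPM in the erythroid class, 62.6 and 64.7 in the megakaryocyte class and 60.5 and 66.0 in the basophil and mast class. The 8 markers of the lymphoid-primed class summed to 680 and 756 CPM in it. The 6 markers shared by neutrophil and monocyte progenitors summed to 6248 and 5183 CPM there, so its cells were also myeloid by markers. This class varied with the processing: 404 wild-type cells here, 262 under a looser cell filter and 5 under a stricter one.

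Csf2rb2 and Csf2rb lie beside each other on chromosome 15, at chr15:78282507-78305721 on the minus strand and chr15:78325752-78353847 on the plus strand (mm10, GENCODE M21). They are close paralogs. Of all stretches of 50 bases in the longest Csf2rb transcript, 892 of 4851 also occurred in a Csf2rb2 transcript, but none of the 551 in its last 600 bases did. In the longest Csf2rb2 transcript 892 of 4691 were shared, and again none of the last 551. The libraries count the 3′ ends of transcripts, where the genes share no such stretch, although reads from the shared stretches could be split between them.

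The 250 bases before the RefSeq start (GRCm38.p6) of Csf2rb2 and Il5ra are shown because both hold the GATA letters TGATAA or AGATAA, read on either strand and given in capitals, and because these genes stand at opposite ends of the data: Csf2rb2 had the largest difference between the libraries of the receptor genes counted, and Il5ra had almost no UMIs. Both windows are on the minus strand, Csf2rb2 at chr15:78305722-78305971 and Il5ra at chr6:106749038-106749287, and are written 5′ to 3′ on the gene's strand.
Csf2rb2: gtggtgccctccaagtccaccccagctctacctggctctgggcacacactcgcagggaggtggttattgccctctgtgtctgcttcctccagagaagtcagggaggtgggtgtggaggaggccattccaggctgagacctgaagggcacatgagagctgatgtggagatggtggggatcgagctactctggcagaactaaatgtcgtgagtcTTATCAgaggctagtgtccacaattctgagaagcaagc
Il5ra: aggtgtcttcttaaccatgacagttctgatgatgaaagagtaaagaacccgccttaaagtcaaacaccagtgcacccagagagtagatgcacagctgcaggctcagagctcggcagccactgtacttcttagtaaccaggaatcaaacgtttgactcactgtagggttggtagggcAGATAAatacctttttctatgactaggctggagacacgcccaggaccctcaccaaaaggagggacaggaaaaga
The letters begin 38 bases before the start of Csf2rb2 and 74 bases before that of Il5ra. Of 32851 windows of this length, 5452 (16.6%) held such letters on either strand. Among the other receptor genes with a window, that of Il6ra held them 245 bases before the start, and those of Csf2ra, Il3ra, Csf3r and Ifngr1 did not. These matches describe the letters only.

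Csf2rb was highest in the basophil and mast class of both libraries. In wild-type cells it stood at 70.3 CPM there (exact 95% Poisson interval 55.6 to 87.6, 79 UMIs), at 26.3 CPM in monocyte progenitors, 21.1 CPM in the lymphoid-primed class, 20.4 CPM in neutrophil progenitors, 13.7 CPM in the stem and multipotent class, 5.51 CPM in the megakaryocyte class and 0.989 CPM in the erythroid class. The intervals of neighbours in this order overlapped from monocyte progenitors down to the stem and multipotent class, so neighbours among these 4 classes did not differ beyond counting error. In the knock-in, Csf2rb stood at 182 CPM in the basophil and mast class (154 to 213, 157 UMIs), while the next 5 classes lay between 16.5 and 32.5 CPM with overlapping neighbours and the erythroid class stood at 3.02 CPM. The stem and multipotent class, below monocyte progenitors in wild type, stood at 29.6 CPM in the knock-in beside 28.8 CPM in monocyte progenitors.

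**Figure D1:**
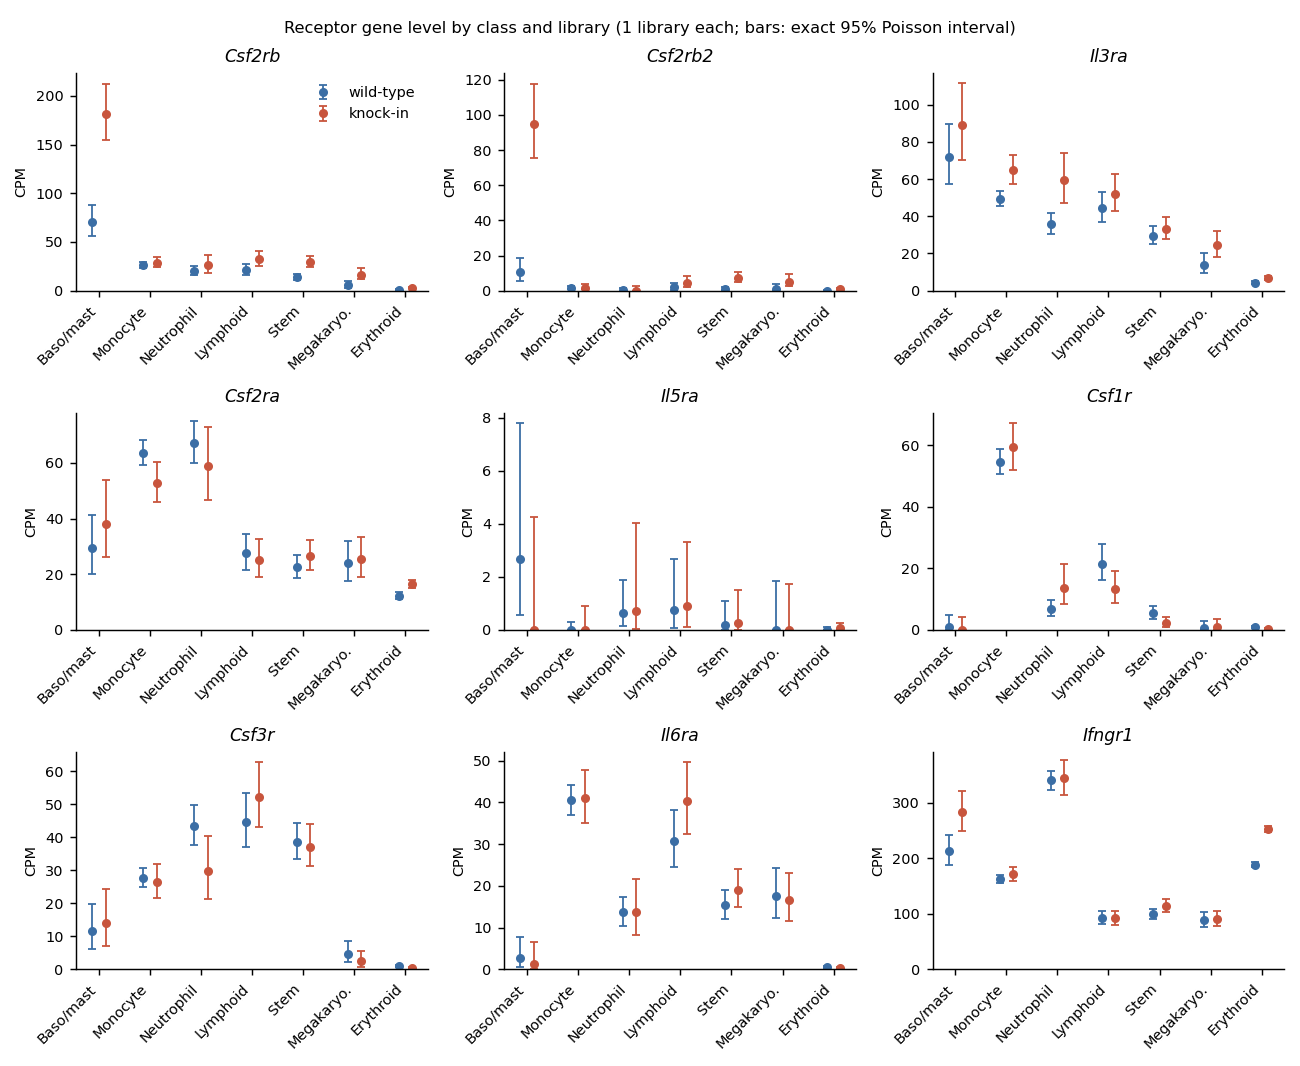
Level of each receptor gene in CPM (y axis, linear from 0, a scale of its own in each panel) in 7 cell classes (x axis) of the wild-type and knock-in library, 1 point per library with its exact 95% Poisson interval of counting error. Csf2rb and Csf2rb2 peak in the basophil and mast class, at 182 and 94.9 CPM in the knock-in, while Csf1r and Il6ra peak in monocyte progenitors and Ifngr1 in neutrophil progenitors.

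The ratio of Csf2rb between the libraries was above 0 in each of the 6 classes where it was counted. Of genes counted in all 7 classes, 17.6% were above 0 in every class. The size of the Csf2rb ratio ranged widely. The log2 ratio of CPM, knock-in over wild type, was 1.61 in the erythroid class (exact interval 1.03 to 2.22, 35 and 88 UMIs), where it rested on 1 knock-in cluster and turned to -0.20 under a stricter cell filter and -0.11 with knock-in cells placed on clusters of wild-type cells. It was 1.37 in the basophil and mast class (0.97 to 1.78) and 1.11 in the stem and multipotent class (0.67 to 1.56, 70 and 111 UMIs). In the lymphoid-primed class it was 0.62 (0.10 to 1.15) on 57 and 71 UMIs, a class that held 12 and 14 Csf2rb UMIs under a looser cell filter. In neutrophil progenitors the ratio was 0.35 (-0.24 to 0.92) and in monocyte progenitors 0.13 (-0.18 to 0.44). No difference was detectable at this depth in either. Over the alternatives these ratios ran from -0.11 to 0.46 and from -0.03 to 0.35. The megakaryocyte class showed 5.51 and 16.5 CPM on 11 and 35 UMIs, fewer than the 50 UMIs over both libraries that a gene needed to be counted. Over all cells the ratio was 0.39 (0.23 to 0.55). It was 0.75 when the classes of both libraries were weighted to the wild-type numbers of cells. This weighting counts each class by its cells, whereas the sum over all cells counts it by its UMIs. Values of the wild-type library therefore change with it too.

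The second beta chain, Csf2rb2, differed more. In the basophil and mast class its wild-type level was 10.7 CPM (5.52 to 18.6, 12 UMIs) and 94.9 CPM in the knock-in (75.5 to 118, 82 UMIs), a log2 ratio of 3.15 (2.27 to 4.16) or 8.90-fold. Over all cells it stood at 0.761 and 3.99 CPM on 49 and 174 UMIs, a log2 ratio of 2.39 (1.92 to 2.88). In the stem and multipotent class there were 5 and 28 UMIs, or 0.980 and 7.48 CPM, a 7.63-fold ratio (2.91 to 25.3). In the erythroid class there were 2 and 35 UMIs, a 21.2-fold ratio (5.46 to 182). Monocyte progenitors held 21 and 7 UMIs, which came to 1.67 and 1.72 CPM (log2 ratio 0.05, -1.43 to 1.34). In neutrophil progenitors there were 2 wild-type UMIs and none in the knock-in, where a count of 0 allows up to 2.68 CPM (exact Poisson interval). Both beta chains had their highest level in the basophil and mast class of each library.

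Among receptor genes with at least 50 UMIs over both libraries, 2 of 5 were at least 2-fold higher in the knock-in basophil and mast class (Csf2rb and Csf2rb2), where 0.850% of all genes counted were. In the erythroid class 1 of 4 was (Csf2rb, with 3.16% of all genes), a call that rested on knock-in cluster 17 and was lost under both alternatives named above. It was 1 of 6 in the stem and multipotent class (Csf2rb, 0.701%) and 1 of 7 in neutrophil progenitors (Csf1r, 1.29%). Over the alternatives the log2 ratio ran from 0.65 to 1.93 for the first and from 0.58 to 1.17 for the second. The calls in the stem and multipotent class and in neutrophil progenitors were thus each lost under at least 1 alternative. In the basophil and mast class the log2 ratio stayed past 2-fold over 13 alternatives. It ran from 1.29 to 1.78 for Csf2rb and from 2.77 to 3.64 for Csf2rb2. None was 2-fold higher in the megakaryocyte class (of 4, 0.643%), the lymphoid-primed class (of 7, 0.435%) or monocyte progenitors (of 7, 0.643%). None of the 40 pairs of receptor gene and class counted was at least 2-fold lower, where 1.48% of all such pairs were. Below 50 UMIs, Csf1r had a log2 ratio of -1.58 in the erythroid class (29 and 8 UMIs). In the stem and multipotent class it had -1.36 (28 and 8 UMIs). In the erythroid class Csf3r had -1.11 (34 and 13 UMIs) and Il6ra -1.46 (20 and 6 UMIs). Each interval lay below 0. In the erythroid class the 10 monocyte progenitor markers summed to 26.0 and 9.05 CPM, and the 6 shared myeloid markers to 485 and 447 CPM. In the stem and multipotent class these sums were 104 and 56.4 CPM, and 2553 and 2186 CPM. The part of other cells in these ratios was not tested. The ratio was above 0 for 4 of 4 receptor genes counted in the erythroid class (58.3% of all genes), 3 of 4 in the megakaryocyte class (54.2%), 5 of 5 in the basophil and mast class (56.2%), 5 of 6 in the stem and multipotent class (54.8%), 4 of 7 in the lymphoid-primed class (53.2%), 5 of 7 in neutrophil progenitors (62.4%) and 5 of 7 in monocyte progenitors (58.9%). Over all cells 4 of 8 lay above 0 (60.2%), 1 of 8, Csf2rb2, was at least 2-fold higher (2.25%) and none was 2-fold lower (2.97%). The median log2 ratio of the receptor genes counted was 0.57 in the erythroid class and 0.41 in the basophil and mast class, beside 0.05 over all genes in each, and 0.08 in monocyte progenitors, beside 0.06 over all genes. It was 0.22 in the stem and multipotent class (0.03 over all genes), 0.23 in the lymphoid-primed class (0.02) and 0.06 in the megakaryocyte class (0.03). It lay below that of all genes in neutrophil progenitors (0.02 beside 0.11) and over all cells (-0.14 beside 0.07).

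**Figure D2:**
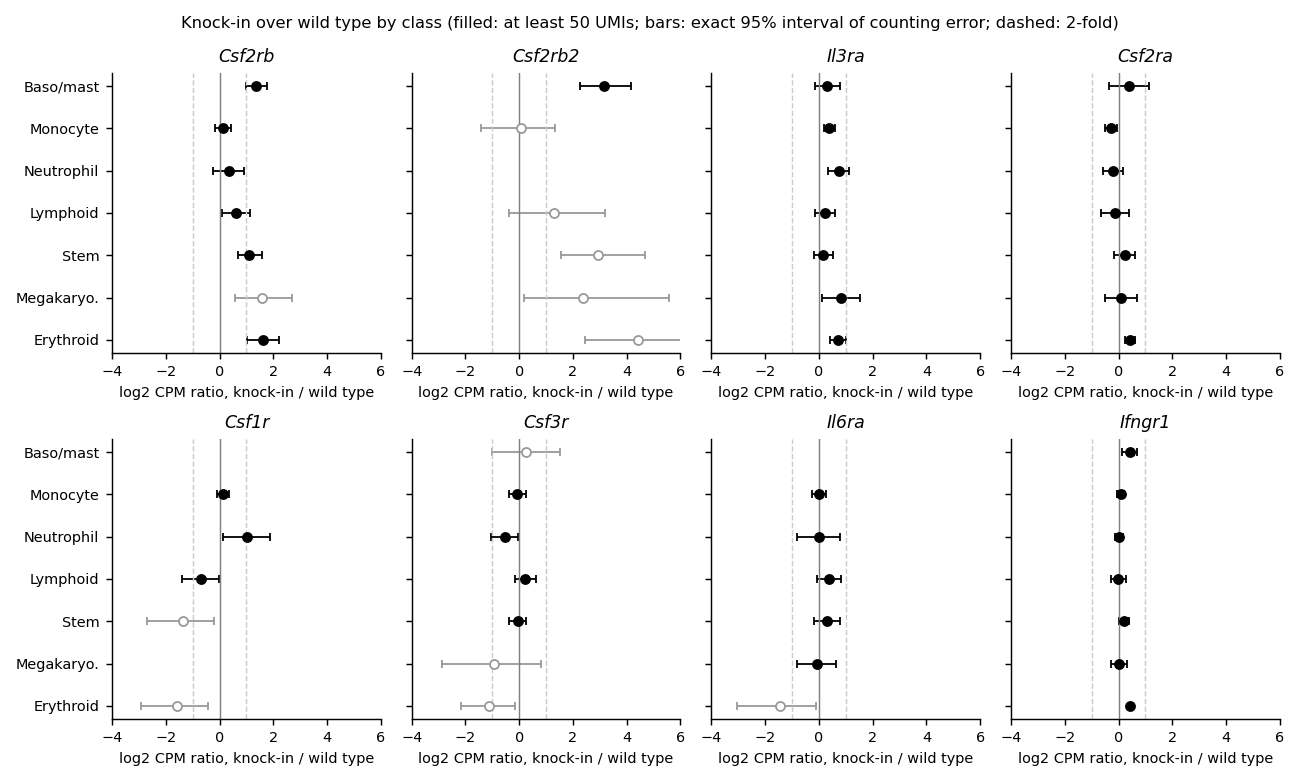
Log2 ratio of CPM, knock-in over wild type (x axis), by class (y axis) for 8 receptor genes, with exact 95% intervals of counting error. Filled points have at least 50 UMIs over both libraries and open points fewer. Dashed lines mark 2-fold, the erythroid interval of Csf2rb2 runs past the axis, and ratios with at most 3 UMIs in both libraries are not drawn. Csf2rb and Csf2rb2 lie to the right of 0 in most classes, with Csf2rb at 1.37 and Csf2rb2 at 3.15 in the basophil and mast class.

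Because the libraries differ in depth, each cell was also thinned to 3000 UMIs, leaving out shallower cells. In the basophil and mast class, a Csf2rb UMI was found in 26 of 145 wild-type cells (17.9%, exact binomial interval 12.1% to 25.2%) and in 57 of 132 knock-in cells (43.2%, 34.6% to 52.1%). The thinning left out 30 and 54 cells of this class. Thinned to 2000 UMIs instead, the shares were 16.9% of 160 and 28.3% of 166 cells, so the size of the gap in shares depended on the depth chosen. Without it the shares were 32.6% and 53.8%, at median depths of 6173 and 3997.5 UMIs per cell. A Csf2rb2 UMI was found in 1.38% and 19.7% of the thinned cells. In the stem and multipotent class the thinned share for Csf2rb was 4.41% (3.02% to 6.20%) in wild type and 8.74% (6.60% to 11.3%) in the knock-in, and 8.50% and 10.6% without thinning. The erythroid class, which had the lowest level of Csf2rb, gave thinned shares of 0.516% and 1.08% at median depths of 14867.5 and 6323.5 UMIs before thinning. In monocyte progenitors the thinned share was 8.70% in wild type and 5.64% in the knock-in, against the order of the CPM, so no order was read from it.

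**Figure D3:**
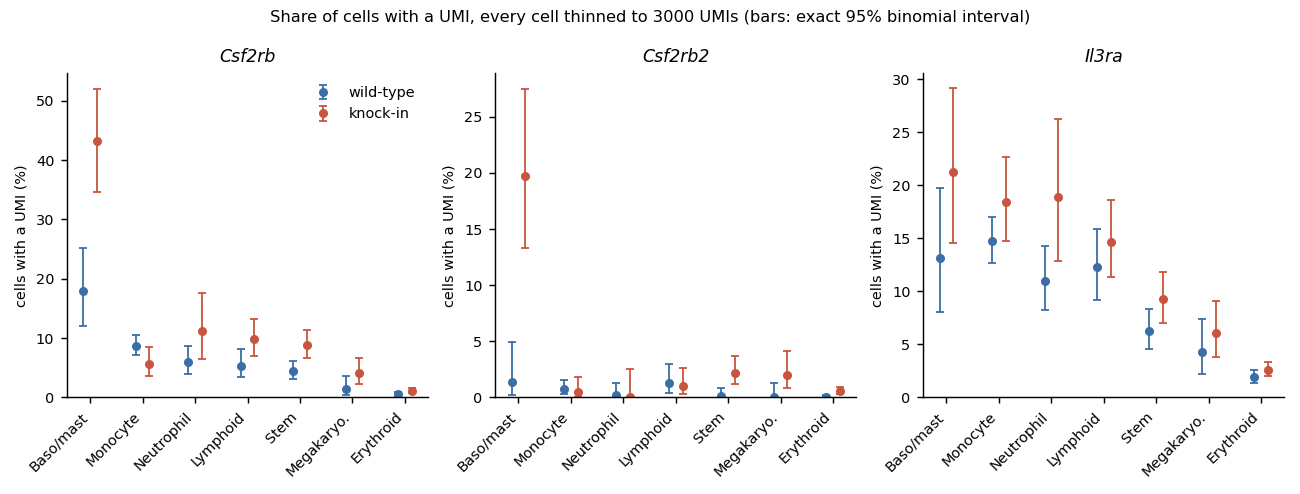
Percent of cells with a UMI of Csf2rb, Csf2rb2 or Il3ra (y axis) by class (x axis), after every cell was thinned to 3000 UMIs, with exact 95% binomial intervals. For Csf2rb in the basophil and mast class the wild-type share is 17.9% and the knock-in share 43.2%, and the intervals do not overlap.

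The basophil and mast class was a single cluster in both libraries, and its own markers differed between them. Cpa3 (a mast cell carboxypeptidase) stood at 861 and 706 CPM and Ms4a2 (a chain of the IgE receptor) at 320 and 342 CPM. The basophil protease Prss34 had 1162 wild-type and 126 knock-in CPM, and Mcpt8 had 423 and 78.7 CPM. The 6 eosinophil granule markers summed to 1845 wild-type and 8.11 knock-in CPM, with Ear1 and Ear6 at 0 in the first and Epx, Ear1 and Ear2 at 0 in the second. Granule UMIs of Prg2, Prg3 or Epx were found in 10 wild-type and 3 knock-in cells. Without those cells Csf2rb stood at 71.5 and 184 CPM and Csf2rb2 at 11.8 and 96.1 CPM, log2 ratios of 1.36 and 3.03 beside 1.37 and 3.15 with them. In cells with neither granule nor Prss34 or Mcpt8 UMIs (121 and 166 cells), Csf2rb had 54.1 wild-type (38.3 to 74.2) and 178 knock-in CPM (149 to 211), and Csf2rb2 had 9.96 and 80.1 CPM. In cells with Prss34 or Mcpt8 UMIs but no granule UMIs (44 and 17 cells) Csf2rb stood at 110 and 234 CPM and Csf2rb2 at 15.7 and 223 CPM.

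Within the erythroid class the wild-type and knock-in cells lay mostly in different clusters, and the Csf2rb UMIs were unevenly spread over them. Of the 88 knock-in UMIs of Csf2rb, 77 lay in cluster 17, which held 1389 knock-in and 29 wild-type cells, as did 30 of the 35 UMIs of Csf2rb2. There Csf2rb stood at 17.1 CPM, with Gata2 (a GATA factor of early progenitors) at 427 CPM and Car1 (an erythroid carbonic anhydrase) at 1291 CPM. The wild-type erythroid cluster with the most Gata2, cluster 10 with 894 cells, had Gata2 at 215 CPM, Car1 at 2804 CPM and Csf2rb at 2.58 CPM. Neither cluster had erythroid markers among its 10 leading genes by fold, and both took the name from the marker scores. Over the whole erythroid class the 10 basophil and mast markers summed to 8.76 wild-type and 24.2 knock-in CPM. They summed to 3324 and 1798 CPM in the basophil and mast class. In the erythroid class Ms4a2 stood at 0.678 and 6.86 CPM, while Prss34 (5 and 0 UMIs) and Mcpt8 (13 and 7 UMIs) were lower in the knock-in. Whether the UMIs of these markers lay in cluster 17 was not tested. Knock-in clusters 14, 16 and 18 held 730, 391 and 439 cells with 4, 4 and 0 UMIs of Csf2rb. The erythroid ratio of Csf2rb rested on cluster 17. It was -0.20 on the log2 scale (-1.36 to 0.93) under a stricter cell filter, where 1019 of the 1389 cells joined a cluster named dendritic, and -0.11 when knock-in cells were placed on wild-type clusters, where 1155 of them fell into unnamed clusters.

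The stem and multipotent class consisted of 2 clusters that both libraries shared. In cluster 7, where the proliferation gene Mki67 had 679 and 852 CPM, Csf2rb had 15.2 wild-type and 33.3 knock-in CPM. In cluster 8, where Mki67 had 41.2 and 42.3 CPM, it stood at 11.8 and 26.6 CPM. Csf2rb2 stood at 0.692 and 11.1 CPM in cluster 7 on 2 and 19 UMIs, and at 1.37 and 4.43 CPM in cluster 8 on 3 and 9 UMIs. In monocyte progenitors, cluster 4 had Csf2rb at 25.4 and 22.9 CPM and cluster 6 at 27.3 and 35.0 CPM, without a common direction.

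**Figure D4:**
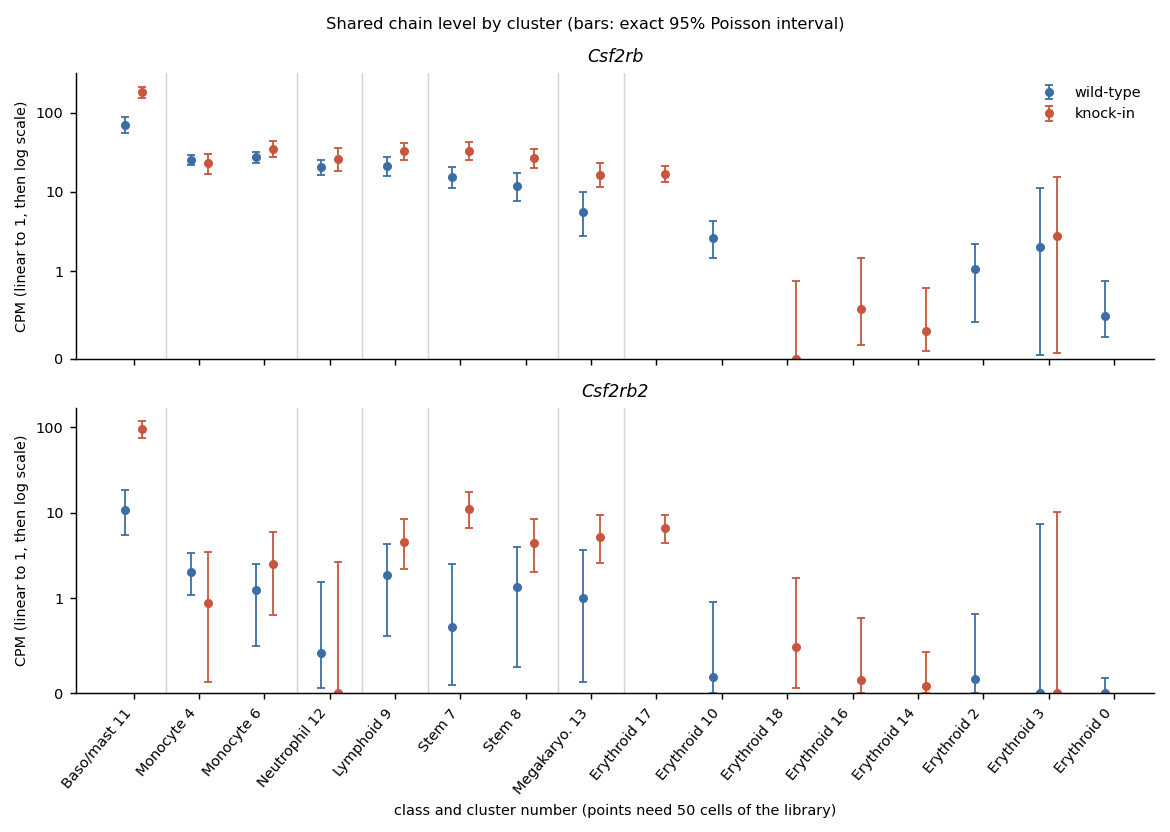
Level of Csf2rb (top) and Csf2rb2 (bottom) in CPM (y axis, linear from 0 to 1 and logarithmic above) in each cluster with at least 50 cells of a library (x axis, grouped by class), with exact 95% Poisson intervals. Among erythroid clusters the knock-in cluster 17 stands out with 17.1 CPM of Csf2rb, and both stem and multipotent clusters have higher knock-in than wild-type levels of Csf2rb.

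The share of the beta chain UMIs that each class held differed between the libraries, as did the share of cells. In wild type, 47.8% of all Csf2rb UMIs came from monocyte progenitors, which made up 19.5% of cells, and 11.4% from the basophil and mast class, which made up 3.19% of cells. In the knock-in these shares were 19.0% and 25.5%, with 7.24% of cells in the monocyte progenitor class and 3.38% in the basophil and mast class. For Csf2rb2 the basophil and mast class gave 24.5% of 49 wild-type UMIs and 47.1% of 174 knock-in UMIs.

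Il3ra, the alpha chain for interleukin 3, had the same order of classes as Csf2rb in wild type, and its ratios between libraries ranged from 0.17 to 0.81. It was highest in the basophil and mast class, at 72.0 CPM (57.2 to 89.5) and 89.2 CPM (70.4 to 111). The log2 ratio there was 0.31 (-0.16 to 0.78). In the knock-in this interval of CPM overlapped that of monocyte progenitors (57.1 to 73.0). The classes follow here in wild-type order. In the knock-in, neutrophil progenitors stood above the lymphoid-primed class, with overlapping intervals. Monocyte progenitors followed with 49.3 and 64.7 CPM (0.39, 0.18 to 0.60), then the lymphoid-primed class with 44.5 and 52.2 CPM, neutrophil progenitors with 35.8 and 59.5 CPM (0.73, 0.34 to 1.12), the stem and multipotent class with 29.4 and 33.1 CPM, the megakaryocyte class with 14.0 and 24.5 CPM (0.81, 0.12 to 1.52) and the erythroid class with 4.21 and 6.89 CPM (0.71, 0.40 to 1.03). The knock-in value was above the wild-type value in all 7 classes (17.6% of genes counted in all 7 were), and the interval of the ratio lay above 0 in 4 of them. Over all cells the ratio was 0.01 (-0.11 to 0.13), and 0.42 with the classes weighted to the wild-type numbers.

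Csf2ra, the alpha chain for GM-CSF, was highest in neutrophil and monocyte progenitors. It stood at 67.0 and 58.8 CPM in neutrophil progenitors and at 63.5 and 52.6 CPM in monocyte progenitors, whose intervals overlapped within each library. In the knock-in the interval of monocyte progenitors (45.8 to 60.2) also overlapped that of the basophil and mast class (26.3 to 53.7). The basophil and mast, lymphoid-primed, megakaryocyte and stem and multipotent classes lay between 22.5 and 29.4 CPM in wild type and between 25.2 and 38.2 CPM in the knock-in. The erythroid class was lowest, at 12.3 and 16.5 CPM, but as the class with most cells it held 23.5% and 47.2% of all Csf2ra UMIs. Its ratio was below 0 in monocyte progenitors (-0.27, -0.50 to -0.05) and above 0 in the erythroid class (0.42, 0.23 to 0.61), where knock-in cluster 17 had the highest level among the clusters shown, 36.8 CPM.

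Il5ra, the alpha chain for interleukin 5 that marks eosinophil and B cell lineages, was close to absent, with 9 UMIs in 8 wild-type cells and 6 UMIs in 6 knock-in cells. The basophil and mast class held 3 of the wild-type UMIs, in 2 cells, and eosinophil granule UMIs were present in 1 of those. The class held none in the knock-in. No ratio is given for Il5ra by class, since each class held at most 3 UMIs per library. In thinned cells, 0 of 212 wild-type cells (upper limit 1.72%) and 0 of 224 knock-in cells (upper limit 1.63%) with a Csf2rb UMI also held an Il5ra UMI, by exact binomial intervals.

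Alpha and beta chains were rarely caught together in a cell. Of thinned knock-in cells with a Csf2rb UMI in the basophil and mast class, 13 of 57 (22.8%, 12.7% to 35.8%) also held Il3ra, beside 15 of 75 cells without Csf2rb. In wild type it was 5 of 26 (19.2%, 6.55% to 39.4%), beside 14 of 119. Csf2rb2 was found in 13 of those 57 knock-in cells and in 0 of the 26 wild-type cells (upper limit 13.2%), while 2 of the 119 other wild-type cells held it. In wild-type monocyte progenitors 20 of 91 cells with Csf2rb held Csf2ra (22.0%, 14.0% to 31.9%) and 8 of 91 held Il3ra. At this depth most cells with a UMI of either chain show only that chain.

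Csf1r, the receptor for M-CSF and a marker of monocytes and macrophages, was concentrated in monocyte progenitors, at 54.6 wild-type (688 UMIs) and 59.3 knock-in CPM (241 UMIs), which held 80.6% and 78.5% of all its UMIs. The ratio there was 0.12 (-0.10 to 0.33). Over all cells Csf1r was lower in the knock-in, at 13.3 and 7.04 CPM (log2 ratio -0.92, -1.11 to -0.73). With the classes weighted to the wild-type numbers it stood at 14.0 and 14.2 CPM. Monocyte progenitors were 19.5% of the wild-type library and 7.24% of the other. In the lymphoid-primed class it stood at 21.5 and 13.3 CPM (-0.70, -1.39 to -0.03, 58 and 29 UMIs), but the ratio was -0.0020 (-0.89 to 0.87) when receptor and pathway genes were allowed in the clustering, and -0.17 to -0.09 under a looser cell filter and both other doublet settings. In that class the 10 monocyte progenitor markers summed to 222 and 127 CPM. In neutrophil progenitors it stood at 6.81 and 13.8 CPM (1.02, 0.12 to 1.88) on 32 and 19 UMIs, where the monocyte markers summed to 783 and 652 CPM. The basophil and mast class held 1 and 0 UMIs and the megakaryocyte class 1 and 2. The part of other cells in these values was not tested.

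Csf3r, the receptor for G-CSF, which drives neutrophil production, was highest in 3 classes in wild type, whose neighbouring intervals overlapped. It stood at 44.5 and 52.2 CPM in the lymphoid-primed class, 43.4 and 29.7 CPM in neutrophil progenitors and 38.6 and 37.1 CPM in the stem and multipotent class. Monocyte progenitors had 27.6 and 26.3 CPM, and in the knock-in their interval overlapped that of neutrophil progenitors. The ratio in neutrophil progenitors was -0.55 (-1.07 to -0.06, 204 and 41 UMIs). In the stem and multipotent class it was -0.06 (-0.38 to 0.26). Csf3r differed between the clusters of that class, at 60.2 and 51.2 CPM in cluster 8 and 22.2 and 20.4 CPM in cluster 7. The erythroid class had 0.961 and 0.446 CPM.

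Il6ra, the alpha chain for interleukin 6, stood at 40.5 and 41.1 CPM in monocyte progenitors and 30.8 and 40.3 CPM in the lymphoid-primed class, whose intervals overlapped. Megakaryocyte, stem and multipotent and neutrophil progenitor classes lay between 13.6 and 17.5 CPM in wild type and between 13.8 and 19.0 CPM in the knock-in. The basophil and mast class held 3 and 1 UMIs. The interval of the ratio included 0 in each of the 5 classes with at least 50 UMIs. Its level over all cells was lower in the knock-in (12.6 and 8.89 CPM, log2 ratio -0.51). With classes weighted to the wild-type numbers of cells it was 14.8 and 15.8 CPM. Csf3r went from 14.6 and 9.90 CPM to 18.7 and 17.4 CPM in the same way. Both wild-type values moved because the weights are cells and not UMIs.

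Ifngr1, the ligand-binding chain for interferon gamma, was found in all classes and had 11596 and 9634 UMIs. It was highest in neutrophil progenitors, at 341 CPM (324 to 358) and 345 CPM (314 to 377), and lowest in the megakaryocyte class, at 89.2 and 91.1 CPM, where the interval overlapped that of the lymphoid-primed class. In the knock-in the interval of neutrophil progenitors overlapped that of the basophil and mast class. The basophil and mast class had 213 and 284 CPM (0.41, 0.15 to 0.67) and the erythroid class 188 and 253 CPM (0.43, 0.38 to 0.48). The erythroid ratio ran from 0.26 to 0.75 over 13 alternatives and lay outside its interval in 7 of them. Among erythroid clusters, Ifngr1 was highest in the Gata2-rich ones, at 280 CPM in wild-type cluster 10 and 469 CPM in knock-in cluster 17. In monocyte progenitors the ratio was 0.08 (-0.04 to 0.21).

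Other genes of the pathway were taken from lists. Some genes below were named after their values were seen, namely Il1rl1, Jak2, Socs2, and Pim1 and Cish outside the erythroid class. Ligands were scarce: of 8, only Csf1 reached 50 UMIs in a class, with 27.6 and 45.2 CPM in the basophil and mast class. In the basophil and mast class, the ratio was above 0 for all 7 other cytokine receptors counted (56.2% of all genes), with an interval that included 0 for each and a median of 0.24, beside 0.05 over all genes. There Il1rl1, the receptor for interleukin 33, stood at 51.6 and 66.0 CPM. Of 6 JAK and STAT genes counted there 2 were higher and 4 lower (median -0.13). Jak2, the kinase bound to the beta chain, stood at 48.0 and 41.7 CPM and Stat5a at 72.0 and 61.4 CPM. Of 5 genes known as STAT5 targets 3 were higher and 2 lower (median 0.00), with Pim1, a survival kinase, at 91.6 and 113 CPM (0.31, -0.11 to 0.72). Of 5 signalling inhibitors counted there 3 were higher and 2 lower (median 0.18), and none was at least 2-fold higher (0.850% of all genes). Below 50 UMIs, Cish had 4 and 2 UMIs there and Socs2 0 and 4. In the megakaryocyte class 1 of 8 inhibitors was at least 2-fold higher (0.643% of all genes). This was Socs2 at 8.01 and 18.4 CPM (1.20, 0.33 to 2.14, 16 and 39 UMIs).

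In the stem and multipotent class, 9 of 15 signalling inhibitors counted had a ratio above 0 and 6 below (54.8% of all genes lay above 0, median 0.04 beside 0.03 over all genes), and 2 were at least 2-fold higher (0.701% of all genes). These were Socs2 at 6.08 and 23.2 CPM (1.93, 1.33 to 2.58, 31 and 87 UMIs) and Cish at 8.63 and 19.0 CPM (1.14, 0.57 to 1.71), both feedback inhibitors that STAT5 is known to induce. Of 8 STAT5 targets counted there 6 had a ratio above 0 and none was 2-fold higher (median 0.04), with Pim1 at 195 and 277 CPM (0.51, 0.38 to 0.64) and Mcl1, a survival gene, at 190 and 171 CPM (-0.16, -0.30 to -0.01). Klf4, a monocyte factor, was lower there at 29.2 and 9.62 CPM (-1.60, -2.17 to -1.07). Its ratio was below 0 in each of the 7 classes, on only 8 and 1 UMIs in neutrophil progenitors, and -1.58 over all cells (-1.82 to -1.35). In the stem and multipotent class Stat5a had 55.9 and 58.5 CPM, and Stat5b 38.8 and 38.7 CPM. In the erythroid class, whose cells lay mostly in different clusters in each library, the ratio was above 0 for 9 of 9 adaptors and kinases (58.3% of all genes, median 0.47 beside 0.05 over all genes), with Gab2 at 3.11 and 7.24 CPM and Fyn at 9.75 and 22.1 CPM. There 3 of 15 inhibitors were at least 2-fold higher (3.16% of all genes), among them Socs2 at 0.424 and 2.26 CPM and Cish at 2.03 and 5.21 CPM, and Pim1 stood at 24.9 and 50.4 CPM. Gata2 stood at 60.4 and 132 CPM in that class and Spi1, a myeloid factor, at 10.5 and 18.3 CPM, while Klf4 stood at 3.59 and 1.34 CPM (-1.42, -1.98 to -0.90). Of 12 lineage transcription factors counted there 7 had a ratio above 0 and 5 below. Cebpe, a granulocyte factor, stood at 124 and 41.7 CPM in the basophil and mast class (-1.57, -2.14 to -1.03) and at 22.3 and 47.5 CPM in monocyte progenitors (1.09, 0.82 to 1.36).

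In monocyte progenitors, where no difference in the beta chains was detectable, 4 of 8 STAT5 targets were higher and 4 lower (median 0.03). Over all genes there, 58.9% lay above 0 (median 0.06). Of the 8 targets, 1 was at least 2-fold lower, beside 1.48% of all pairs of gene and class. This was Osm, a cytokine gene, at 10.0 and 3.44 CPM (-1.54, -2.45 to -0.74, 126 and 14 UMIs). Ifngr2, the partner of Ifngr1, stood at 40.0 and 48.0 CPM, and Il6st, the partner of Il6ra, at 20.5 and 23.9 CPM.

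Over the 14 sums of a class in a library, the genes whose level most resembled that of Csf2rb among 9008 genes with at least 500 UMIs were Casz1 (Pearson r = 0.92 of log2 CPM plus 10), Fut7 (0.91), Lmo4 (0.89), Il3ra (0.89) and Cxcr4 (0.89). These points share 2 libraries and differ in depth, and the values are descriptive. For Csf1r the most alike gene was Mpeg1 (0.99), followed by Ly86 (0.95), for Il3ra it was Glud1 (0.97) and for Csf3r it was Snx4 (0.97). Of the receptor genes ranked, Il3ra was the only one among the 5 genes most like Csf2rb.

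Genes within 300 kb of the paired beta chains were compared in the same way, after the ratios of Csf2rb and Csf2rb2 had been seen. Of 4765 genes counted in all 7 classes, 0.0420% were at least 2-fold higher in every class, 17.6% were above 0 in every class and 8.73% below 0 in every class. Of the 7 neighbours counted in all 7 classes, Ncf4 was higher by log2 ratios of 1.08 to 1.82 and Ift27 lower by ratios of -1.33 to -0.26 in all 7 classes, while Csf2rb itself ranged from 0.13 to 1.61 in the 6 classes where it was counted. The strain of the libraries is not given in the sources used here, so for Csf2rb, Csf2rb2 and their neighbours a difference that came with the strain at this locus and one that came with the mutation cannot be told apart.

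**Figure D5:**
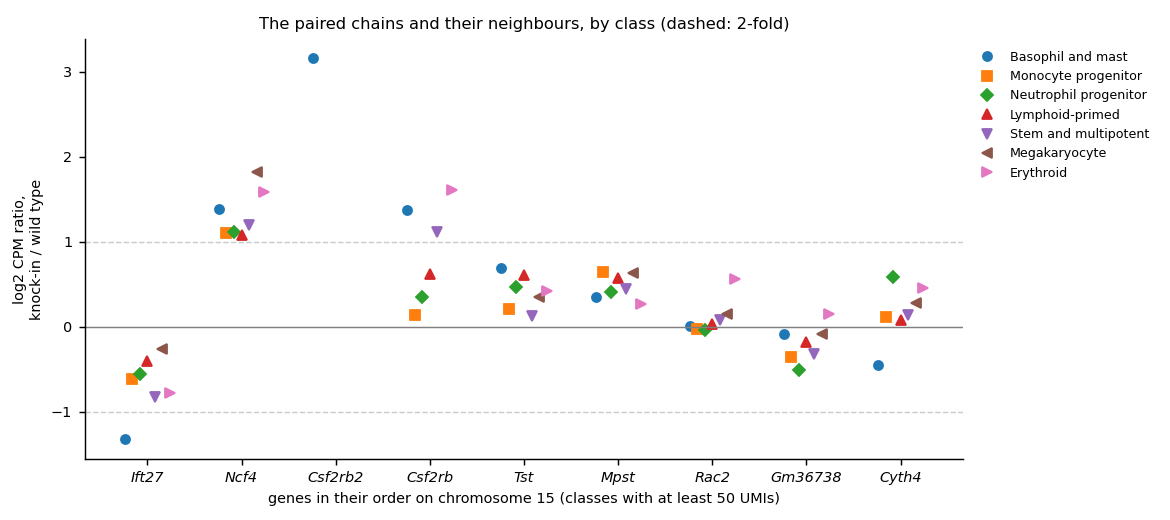
Log2 ratio of CPM, knock-in over wild type (y axis), of Csf2rb, Csf2rb2 and the counted genes around them in their order along chromosome 15 (x axis), 1 point for each class with at least 50 UMIs over both libraries, with dashed lines at 2-fold. Ncf4 lies above 1 and Ift27 below 0 in all 7 classes, and Csf2rb spreads from 0.13 to 1.61.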

How the data were processed

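The authors deposited unnormalized UMI counts, a matrix of genes by cell barcodes for each library, made with Cell Ranger 3.1.0 on mm10, per the file headers and the submitters' processing notes. There were 7471 barcodes in the wild-type file and 6640 in the other. A cell was kept if it had 500 or more genes, 1000 or more UMIs and no more than 10% mitochondrial UMIs. Over this mitochondrial limit lay 1722 wild-type and 760 knock-in barcodes, and 5635 and 5781 barcodes passed the filter. The libraries thus lost unequal shares of their barcodes. The doublet caller marked 2.59% of the wild-type library and 0.0692% of the knock-in library. Because the latter was under 0.5%, the 5% of knock-in cells with the highest scores were removed instead, so 146 and 281 cells were left out. Cells were clustered together with scanpy 1.11.5 (2000 variable genes, 30 principal components, 15 neighbours, Leiden resolution 1) without the receptor and pathway genes. Clusters were named from markers by a score that was chosen after the clusters were seen, and 7 classes with at least 100 cells per library were compared.

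Counts were summed per class and library and given as CPM with exact Poisson intervals. Ratios have exact conditional binomial intervals and shares Clopper-Pearson intervals, all at 95% and for counting error only. PCR duplicates are removed by the UMIs, but cells of 1 library are not replicates. A gene was counted with at least 50 UMIs over both libraries and called at 2-fold. The ratio and interval calculation was tested on simulated data. The receptor genes and the lists were chosen with earlier results of these data known. The rule for naming took the 4 members of a list with most UMIs, and any 2-fold apart whose higher library had 100 UMIs, with the exceptions given in the text. Alternatives were other cell filters, doublet handling, clusterings and weightings.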

Additional observations from a re-analysis of the deposited data

Results flagged for a closer look

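The log2 ratio of Csf2ra between the libraries was 0.42 in the erythroid class and -0.27 in monocyte progenitors, with both intervals on their own side of 0. The difference between the classes was not tested, and the erythroid cells of the libraries lay mostly in different clusters. The ratio of Csf1r was 1.02 in neutrophil progenitors and -0.70 in the lymphoid-primed class, again with a difference that was not tested. These rest on 32 and 19 UMIs and on 58 and 29 UMIs. The neutrophil progenitor value ran from 0.58 to 1.17 over 11 alternatives. The lymphoid-primed value was -0.0020 when receptor and pathway genes were allowed in the clustering, and -0.17 to -0.09 under a looser cell filter and both other doublet settings.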

How the results depend on the processing

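No paired analysis was possible because there was 1 library per genotype. Of 557 recomputed log2 ratios over 48 results, 512 stayed within the interval of the value reported, whatever their sign, 40 lay outside it, and 5 turned the sign of a value whose interval had excluded 0. The ratio of Csf2rb in the erythroid class was -0.20 under a stricter cell filter, -0.11 when each knock-in cell was placed on clusters made from wild-type cells alone, and 2.72 with only the erythroid cluster highest in Gata2 in each library, an alternative chosen after seeing the data. In the basophil and mast class the ratio of Csf2rb was 1.78 under the stricter filter, and in the stem and multipotent class 1.93 under that filter and 0.65 at Leiden resolution 0.6. Over all cells it was 0.67 as a mean over cells and 0.58 with placed cells. Ifngr1 in the stem and multipotent class was -1.12 under the stricter filter and -0.72 at Leiden resolution 1.6, and Il6ra over all cells was 0.019 with placed cells. In the erythroid class Ifngr1 ran from 0.26 to 0.75 over 13 alternatives, outside its interval in 7. Csf2ra there ran from 0.21 to 0.82, outside its interval in 4. The cause of these changes was not tested, beyond the regrouping of cluster 17 given above. With cells thinned to 2000 UMIs, the share of basophil and mast cells with a Csf2rb UMI was 16.9% in wild type and 28.3% in the knock-in. Csf2rb2 in the basophil and mast class stayed between 2.77 and 3.64 over 13 alternatives. Not run for want of cells were the lymphoid-primed class under the stricter filter, at resolution 0.6 and with placed cells, and neutrophil progenitors at resolution 0.6. With 1 library each, the depth limits every value to counting error.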

Other observations

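Ncf4, a subunit of the phagocyte NADPH oxidase that lies at chr15:78244801-78262580, next to Csf2rb2, was at least 2-fold higher in the knock-in in all 7 classes, with log2 ratios from 1.08 to 1.82. In monocyte progenitors, where no difference in Csf2rb was detectable, Ncf4 stood at 97.5 and 210 CPM (1.11, 0.98 to 1.23). Of 4765 genes with at least 50 UMIs in every class, 2 (0.0420%) were at least 2-fold higher in every class, and the other was Gm47283, a gene named after its values were seen. Ift27, an intraflagellar transport gene at chr15:78159463-78174107, was lower in all 7 classes, with log2 ratios from -1.33 to -0.26 and the interval below 0 in 5. The ratio was below 0 in every class for 416 (8.73%) of the 4765 genes.

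On the far side of Csf2rb, Tst and Mpst (sulfur metabolism enzymes) had ratios above 0 in all 7 classes (17.6% of genes did), with ranges of 0.12 to 0.69 and 0.26 to 0.64 and the interval above 0 in 3 and 5 of them. Rac2, a small GTPase of blood cells a little further along, ranged from -0.04 to 0.56. Ift27 and Ncf4 were the genes nearest to Csf2rb2 on its other side with at least 50 UMIs in a class, and they differed between the libraries in opposite directions in all 7 classes.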
